A study of Homo sapiens with 10 samples.

Results

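CTCF and histone peaks were described around 8 HLA genes on the main chromosome 6 sequence of hg38, namely the class I genes HLA-F, HLA-E, HLA-C and HLA-B and the class II genes HLA-DRA, HLA-DRB1, HLA-DQA1 and HLA-DQB1. The members were taken by name, out of 20007 protein-coding genes. For each gene the window was its GENCODE 44 body with 10 kb on each side, and the intergenic span between HLA-DRB1 and HLA-DQA1 (chr6:32589849-32628178) was added. The class I windows covered 117018 bp and the class II windows, merged where they overlap, 117321 bp. Peaks came from HEK293T, a human embryonic kidney cell line, in which CTCF was pulled down from cells transduced with a non-targeting shRNA (CT, endogenous CGGBP1), with shRNA against CGGBP1 (KD) or with a construct that overexpresses CGGBP1 as a FLAG fusion (OE). Histone marks (H3K4me3, H3K9me3, H3K27me3) were profiled with and without the knockdown, and an input library, whose condition the sources used here do not give, was sequenced once. Puromycin selection is stated for the CT and KD cells and not for OE. The shRNA constructs were aimed at several regions of the CGGBP1 reading frame, and no cloning of the transduced cells is described.

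HLA class I heavy chains pair with beta-2-microglobulin and display peptides from inside the cell on nearly all nucleated cells. HLA-B and HLA-C are classical class I molecules, whereas HLA-E, a ligand of NKG2 receptors on natural killer cells, and HLA-F are non-classical. Class II molecules display peptides from outside the cell and are normally restricted to antigen-presenting cells, where CIITA switches them on. HLA-DRA and HLA-DRB1 encode the alpha and beta chains of HLA-DR, and HLA-DQA1 and HLA-DQB1 those of HLA-DQ. CTCF binds a known DNA motif and marks insulators and loop anchors, and an intergenic CTCF site between the HLA-DRB1 and HLA-DQA1 genes is known in other cells. H3K4me3 marks active promoters, H3K27me3 Polycomb-repressed regions and H3K9me3 silenced repeats.

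The deposited lists give positions only, without height or score, and each condition had 1 library, so no difference between CT, KD and OE has a replicate check and no test was made. A weaker peak and a peak present in fewer cells cannot be told apart. For CT, KD and OE in turn, the unmasked CTCF lists held 42978, 47632 and 47216 peaks, and the lists called on repeat-masked reads held 26635, 24418 and 21071. According to the labels, unmasked CTCF peaks were called at a p of 0.0025 in CT and KD and of 0.005 in OE, whereas the methods give 0.005 for all unmasked lists. Repeat-masked CTCF peaks were called at a stricter p of 0.001. Lists with and without masking thus differ in cutoff too, and masking and cutoff cannot be told apart. The methods name opposite antibodies for H3K9me3 and H3K27me3 from those in the labels, and these lists were used by the mark in the sample titles. The number of reads behind a peak is not known from the lists.

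Across the 6 CTCF lists, 10 CTCF loci were found in the windows and the span, and 2 of them were present in every list. These 2 lay on either side of the class division, one upstream of HLA-B and one between HLA-DRB1 and HLA-DQA1. Their sequences are shown first because they are the peaks listed in every condition, in the unmasked and the repeat-masked lists. Coordinates are of hg38, the forward strand is printed, and capitals mark the CTCF motif site, or only the best one where there are several. Sites were searched on both strands with a matrix of 14 columns, whose most frequent bases are CCACCAGGGGGCAC. The matrix was learned from 11692 repeat-masked CT peaks outside chromosome 6 that also overlapped repeat-masked KD and OE peaks. A site was counted at a score with a p below 0.0001 under the base composition of hg38, and a strict site at a p below 1e-05.
DRB1-DQA1 span, chr6:32622473-32622749: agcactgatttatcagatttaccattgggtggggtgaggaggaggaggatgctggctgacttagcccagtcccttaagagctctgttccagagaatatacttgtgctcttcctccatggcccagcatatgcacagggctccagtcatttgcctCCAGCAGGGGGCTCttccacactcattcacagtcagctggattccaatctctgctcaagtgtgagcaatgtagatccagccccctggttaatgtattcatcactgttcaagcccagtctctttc
HLA-B upstream, chr6:31367066-31367175: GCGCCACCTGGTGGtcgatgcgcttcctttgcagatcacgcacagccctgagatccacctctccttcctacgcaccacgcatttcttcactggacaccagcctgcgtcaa

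The intergenic class II locus spanned chr6:32622422-32622778 over all lists. The CT peak ran from 32622473 to 32622776, the KD peak from 32622446 to 32622761 and the OE peak from 32622422 to 32622778. On repeat-masked reads the peaks ran from 32622465 to 32622749 in CT, from 32622449 to 32622753 in KD and from 32622464 to 32622774 in OE, so that the bases shown above are common to all 6. The locus was centred 14806 bp before the canonical start site of HLA-DQA1, in intergenic sequence. It held 1 site, CCAGCAGGGGGCTC on the forward strand, with a score of 18.1 and inside every peak. No peak of a histone mark or of the input overlapped it.

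The HLA-B locus spanned chr6:31366852-31367242, 9868 bp before the canonical start site. The CT peak ran from 31366918 to 31367200, the KD peak from 31366852 to 31367242 and the OE peak from 31366873 to 31367176. The repeat-masked peaks ran from 31366918 to 31367200 in CT, from 31366883 to 31367221 in KD and from 31366917 to 31367175 in OE. The CT peak was thus the same with and without masking. It lay over the first exon of long HLA-B transcripts and over exons of the pseudogene DHFRP2, and only its part outside annotated untranslated exons is printed, apart from the first bases of the site. The locus held 3 sites, all inside every peak. The best site, CCACCAGGTGGCGC on the reverse strand, had the highest score of all sites under these CTCF loci, 22.9. H3K4me3 covered this locus in CT (chr6:31366478-31367462) and in KD (chr6:31366538-31367455).

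**Figure D1:**
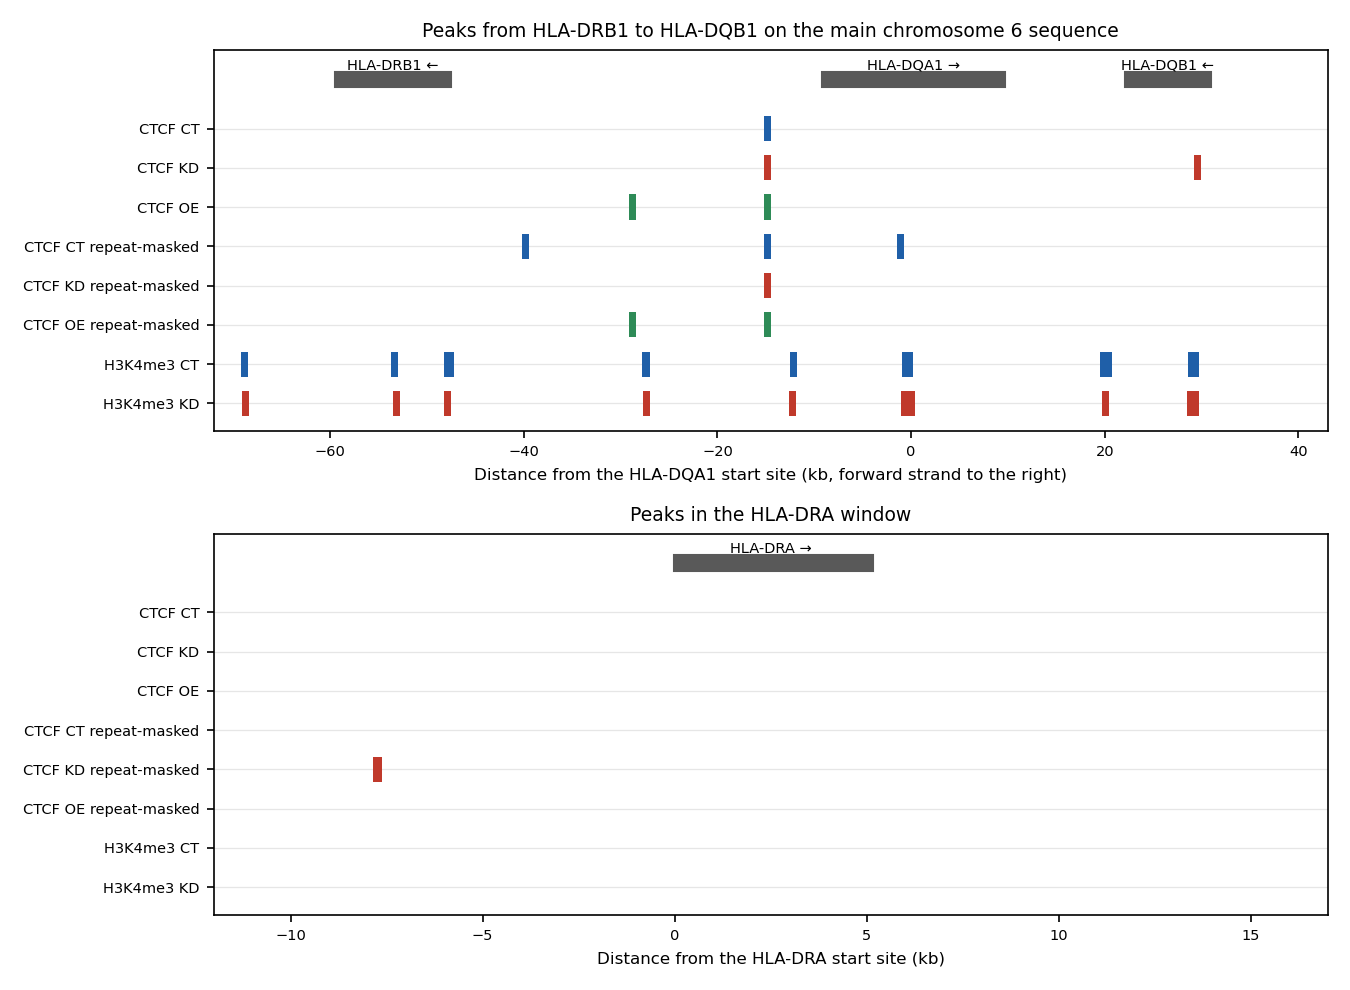
Peaks from HLA-DRB1 to HLA-DQB1 (upper panel, distance from the HLA-DQA1 start site in kb) and in the HLA-DRA window (lower panel, distance from its start site in kb), with 1 lane per list, CT in blue, KD in red, OE in green and annotated gene bodies in grey. Blocks are peaks, widened where narrower than the line; the block in all 6 CTCF lanes lies 14806 bp before the HLA-DQA1 start site, and H3K4me3 lies at the start sites of HLA-DRB1, HLA-DQA1 and HLA-DQB1 and nowhere in the HLA-DRA window.

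Near HLA-E, 2 further CTCF loci were found upstream of the gene. They differed in their presence in the unmasked and the repeat-masked lists, which also differ in cutoff. Both loci are intergenic and are printed to show a masked and an unmasked peak of one window.
HLA-E distal, chr6:30482156-30482358: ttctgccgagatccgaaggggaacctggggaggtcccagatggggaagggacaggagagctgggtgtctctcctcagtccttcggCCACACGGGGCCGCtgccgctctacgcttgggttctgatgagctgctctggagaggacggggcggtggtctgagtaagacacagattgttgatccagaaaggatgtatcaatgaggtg
HLA-E proximal, chr6:30483782-30484010: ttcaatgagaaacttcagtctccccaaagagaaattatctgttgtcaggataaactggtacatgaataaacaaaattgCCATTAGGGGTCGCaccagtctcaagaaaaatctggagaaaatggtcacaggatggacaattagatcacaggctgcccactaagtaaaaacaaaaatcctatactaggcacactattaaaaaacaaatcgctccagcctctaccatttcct
The distal locus, chr6:30482123-30482397, lay 7249 bp before the start site. It was listed in CT and KD and in all repeat-masked lists, but not in the unmasked OE list. Its 2 sites were below the strict threshold, with scores of 10.8 and 8.86, and the capitals mark the one found in every peak. The proximal locus, chr6:30483747-30484089, lay 5591 bp before the start site and was listed in the 3 unmasked lists and in none of the repeat-masked lists. It held 1 strict site with a score of 13.7, and none of its bases was repeated, that is, part of a 24-mer with 10 or more occurrences on chromosomes 1 to 22, X and Y. This count of exact words misses repeats whose copies have diverged. Whether the locus is masked in the repeat-masked genome was not checked.

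A further class I locus lay 17203 bp before the start site of HLA-B, at chr6:31374178-31374586, in an intron of a lncRNA. Unmasked peaks were listed at 31374220 to 31374586 in CT, at 31374206 to 31374483 in KD and at 31374178 to 31374433 in OE, and no repeat-masked list held it. Repeated 24-mers covered 89.1%, 91.0% and 90.6% of these peaks, against 0% in every other unmasked CTCF peak of the windows. It nevertheless held a strict site, CCACCAGAGGGCTC, with a score of 18.4. H3K4me3 peaks overlapped it in CT and KD.

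**Figure D2:**
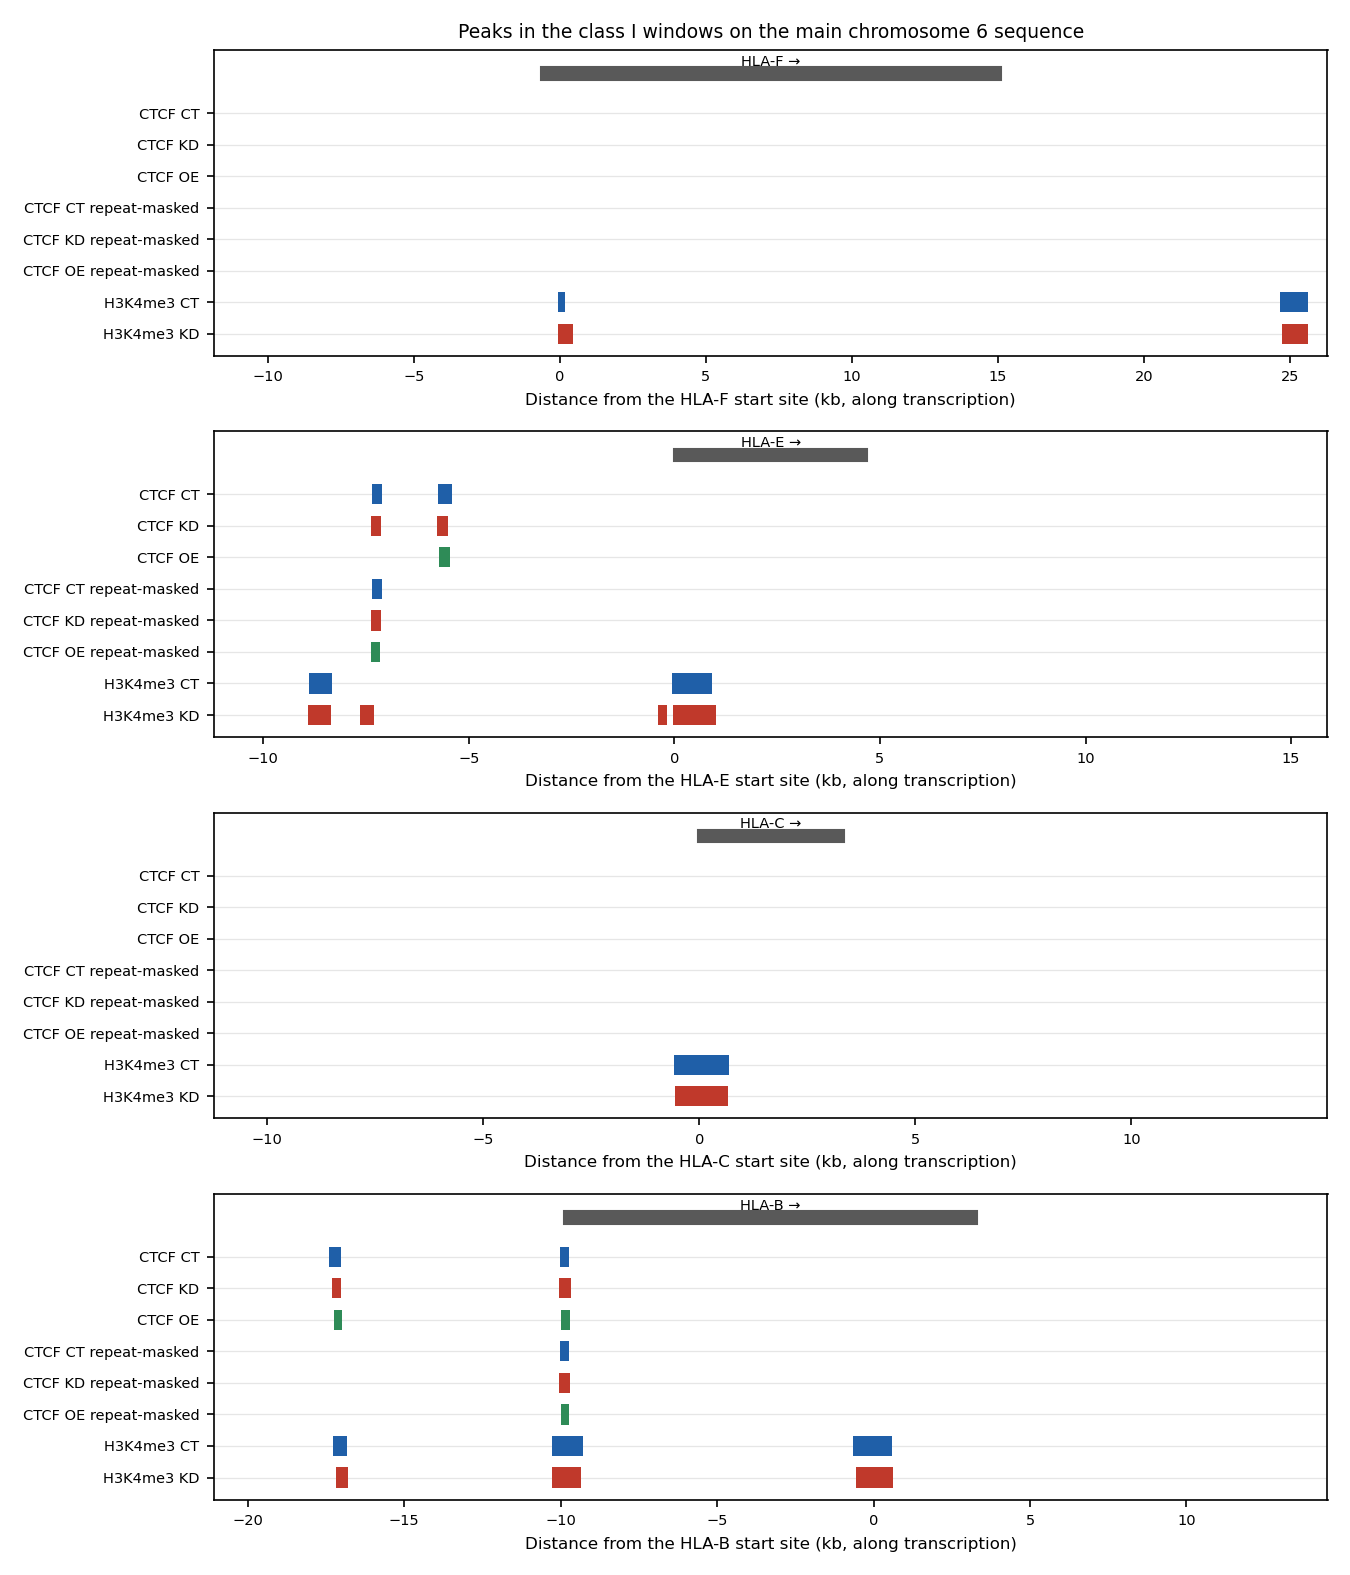
Peaks in the windows of HLA-F, HLA-E, HLA-C and HLA-B against the distance from each canonical start site in kb along the direction of transcription, with 1 lane per list, CT in blue, KD in red, OE in green and annotated gene bodies in grey. CTCF blocks appear in the HLA-E and HLA-B windows, all upstream of the start site, and H3K4me3 blocks lie at all 4 start sites.

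HLA-F and HLA-C had no CTCF peak in any of the 6 lists within their windows. On the main sequence the unmasked CTCF peak nearest to the HLA-F start site was 69638 bp away in CT, 26601 in KD and 407667 in OE. For HLA-C these distances were 74732, 49820 and 74818 bp. In the repeat-masked lists of CT, KD and OE they were 29604, 73107 and 133697 bp for HLA-F. For HLA-C the repeat-masked distances were 14526, 74887 and 74887 bp. Among all protein-coding genes, 16.8% had no CTCF peak in any list, compared with these 2 of 8 members, counting the main sequence alone. Peaks of HLA-F on alternate sequences are given below.

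The remaining 5 loci were class II loci found in 1 or 2 lists each. The OE locus in the intergenic span and the KD locus upstream of HLA-DRA are printed because each has a strict site, and the KD locus at HLA-DQB1 because it lies by a start site and has none.
DRB1-DQA1 span in OE, chr6:32608501-32608683: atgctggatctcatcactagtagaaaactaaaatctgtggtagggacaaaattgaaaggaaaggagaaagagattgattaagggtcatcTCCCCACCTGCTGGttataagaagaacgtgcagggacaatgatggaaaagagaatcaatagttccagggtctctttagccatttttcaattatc
HLA-DRA upstream in KD, chr6:32432043-32432260: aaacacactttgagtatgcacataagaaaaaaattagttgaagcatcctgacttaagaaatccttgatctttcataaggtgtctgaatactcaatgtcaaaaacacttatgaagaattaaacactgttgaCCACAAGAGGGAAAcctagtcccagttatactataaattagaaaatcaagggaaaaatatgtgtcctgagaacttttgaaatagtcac
HLA-DQB1 start in KD, chr6:32666868-32667088: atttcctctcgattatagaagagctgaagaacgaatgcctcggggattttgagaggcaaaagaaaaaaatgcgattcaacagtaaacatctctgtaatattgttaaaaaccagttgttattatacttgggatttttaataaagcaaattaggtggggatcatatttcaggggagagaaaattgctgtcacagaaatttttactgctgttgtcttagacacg
The OE locus ran from 32608490 to 32608859 unmasked and from 32608501 to 32608683 repeat-masked, 18826 bp before the HLA-DRB1 start site, and its site scored 13.4. It was in neither CT nor KD list. At HLA-DRA, a peak was listed only in the repeat-masked KD list, 7736 bp before the start site, with a site score of 14.3. At HLA-DQB1, a peak was listed only in the unmasked KD list, centred 321 bp before the canonical start site in an intron of a longer transcript. H3K4me3 peaks covered it in CT and KD. The last 2 loci were in the repeat-masked CT list alone and held no site, at chr6:32597426-32597741 in the HLA-DRB1 window and the span, and at chr6:32636180-32636390, 1121 bp before the HLA-DQA1 start site.

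In all, 7 of the 10 loci held a site. All 4 class I loci held one, and the 3 loci without one were class II loci, each listed once. Over the whole lists, 47.3% of CT peaks, 67.4% of KD peaks and 57.9% of OE peaks held a site, and 58.4%, 89.1% and 86.6% of the repeat-masked peaks did. Of consecutive 300 bp windows of chromosome 6, 12.5% held one. The 11692 peaks from which the matrix was learned are part of the repeat-masked CT list and overlap peaks of the other repeat-masked lists.

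Counted by gene, a CTCF peak lay in the window of 3 members in CT (HLA-E, HLA-B and HLA-DQA1), against 62.5% of all protein-coding genes. In KD it was 4 members, with HLA-DQB1 added, against 70.7%, and in OE the 3 members of CT, against 68.5%. On repeat-masked reads, 4 members had a peak in CT, with HLA-DRB1 added (54.1% of all genes), 4 in KD, with HLA-DRA added (56.3%), and 3 in OE (51.7%). HLA-E, HLA-B and HLA-DQA1 had a peak in all 6 lists, as had 38.8% of all genes. These member shares of 3 or 4 in 8 lie below the background in every list, with too few genes to set them apart. They count peaks on the main sequence alone. On alternate sequences of chromosome 6, described below, HLA-F had CTCF peaks in every list and HLA-DRA in KD and OE. The order need not hold with those peaks counted. Member windows were 23382 to 38884 bp long, and the windows of all genes were not matched to them in length. A longer window can hold more peaks, so the shares are not of like windows.

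By class, the unmasked CTCF density was higher in class I than in class II, but the counts were small. For CT, KD and OE, class I windows held 4, 4 and 3 peaks, which is 3.42, 3.42 and 2.56 per 100 kb. Class II windows held 1, 2 and 1 peaks, or 0.852, 1.70 and 0.852 per 100 kb. The exact Poisson 95% intervals, which cover counting error only, were 0.931 to 8.75 for class I and 0.0216 to 4.75 for class II in CT, and they overlapped in KD and OE too. All protein-coding windows together gave 1.45, 1.69 and 1.65 per 100 kb, inside both intervals in every condition. On repeat-masked reads the order was not kept, with 2 class I peaks in each condition and 3, 2 and 1 class II peaks in CT, KD and OE. With a flank of 25 kb the order turned in OE, to 1.27 per 100 kb in class I and 1.53 in class II. A difference between the classes was therefore not detectable at these counts.

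**Figure D3:**
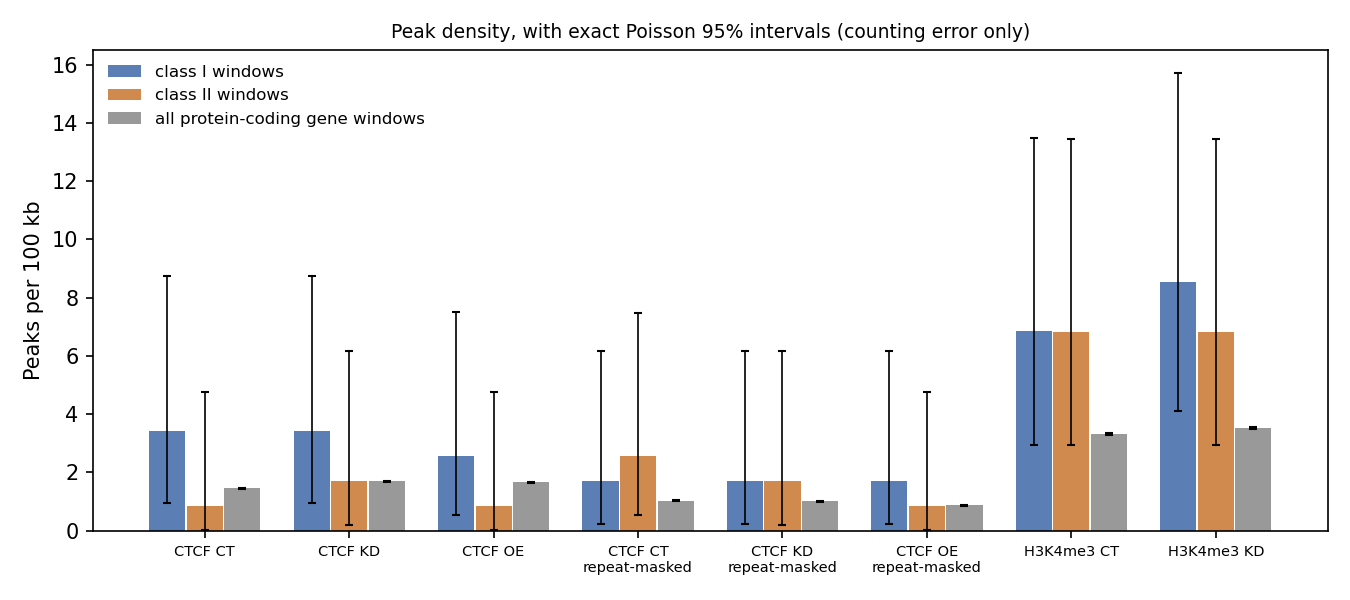
Peaks per 100 kb in class I windows, class II windows and the windows of all protein-coding genes for each list, with bars from 0 and exact Poisson 95% intervals. The class I and class II intervals overlap in every list, and for H3K4me3 in CT both classes stand near 6.8 per 100 kb.

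Between conditions, most CTCF peaks of the windows and the span were found again. All 5 CT peaks overlapped a KD peak by at least 1 bp and 4 of 5 overlapped an OE peak, against 50.2% and 46.5% of the whole CT list. The 6 KD peaks included 5 that met a CT peak and 4 that met an OE peak, against 45.2% and 61.5% of the whole KD list. The 5 OE peaks included 4 found in CT and 4 found in KD, against 42.4% and 62.1% of the whole OE list. On repeat-masked reads, the 3 loci at HLA-E (distal), HLA-B and the span were shared by all conditions, and each condition had further peaks of its own, 2 in CT, 1 in KD and 1 in OE. By gene, no member had a peak in CT and none in KD (background 6.8%) or none in OE (8.04%), and none had one in OE and none in CT (14.1%). HLA-DQB1 had a peak in KD and none in CT, as had 15.1% of all genes. On repeat-masked reads, HLA-DRA gained a peak in KD over CT (11.1%) and HLA-DRB1 had one in CT but not in KD (8.83%) or OE (11.3%), while no member had one in OE but not in CT (8.89%). Set against OE, the KD list added HLA-DQB1 on unmasked reads (8.18%) and HLA-DRA on repeat-masked reads (6.98%), and OE added no member over KD (6.01% and 2.3%).

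H3K4me3 lay at the start sites of both classes. The canonical start site was covered by an H3K4me3 peak in CT and in KD for 7 of the 8 members, and HLA-DRA had no H3K4me3 peak in its window in either condition. Within 1 kb of the start site, 69.8% of all protein-coding genes had a peak in CT and 70.4% in KD. In the whole window, the same 7 members had a peak, against 87.1% and 88%, and no member had one in CT alone (0.8%) or in KD alone (1.75%).

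Among class I genes, the peak at the HLA-F start site was 205 bp wide in CT (chr6:29723367-29723571) and 520 bp in KD (chr6:29723371-29723890), the narrowest of the 7 in both conditions. At HLA-E it was 982 bp wide in CT and 1055 bp in KD, and KD had a second peak of 221 bp just before it. HLA-C and HLA-B were much alike in both conditions, with 1256 and 1249 bp at HLA-C and 1233 and 1171 bp at HLA-B. Among class II genes, the widths were 1029 bp in CT and 660 bp in KD at HLA-DRB1, and 1190 and 1245 bp at HLA-DQB1. At HLA-DQA1, 1 peak of 1105 bp in CT (chr6:32636501-32637605) stood against 2 peaks of 607 and 533 bp in KD (chr6:32636464-32637070 and chr6:32637219-32637751), which cover nearly the same bases.

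All 17 H3K4me3 peaks of CT in the windows and the span overlapped a KD peak, and 17 of 19 KD peaks overlapped a CT peak, against 85.9% and 80.7% of the whole lists. Both KD peaks without a CT partner lay at HLA-E, at chr6:30481863-30482200, which reaches into the distal CTCF locus, and at chr6:30489110-30489330, 289 bp before the start site. Counting the class windows alone, class I had 8 peaks in CT and 10 in KD, or 6.84 and 8.55 per 100 kb. Class II had 8 in each, or 6.82 per 100 kb. All protein-coding windows had 3.32 and 3.51 per 100 kb, which lies inside both class II intervals (2.94 to 13.4) and inside the class I interval of 2.95 to 13.5 in CT, and below that of 4.10 to 15.7 in KD. Class I bodies were 3382 to 15754 bp long, and the windows of all genes were not matched to them in length. The densities are therefore not of like windows, and the KD value does not show an enrichment in class I. The DRB1-DQA1 span held peaks of its own away from any protein-coding start site, at chr6:32609621-32610421 in CT and chr6:32609682-32610462 in KD, beyond the OE-only CTCF locus on the HLA-DQA1 side. Another lay at chr6:32625039-32625442 in CT and chr6:32625025-32625359 in KD.

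Base composition was also listed for promoters under these H3K4me3 peaks. RefSeq promoters of GRCh38.p14 were given for 6 of the 8 members, not for HLA-E and HLA-DRA. Upstream parts of 1 class I and 2 class II promoters are printed on the strand of the gene, up to the first annotated untranslated base. Capitals mark CCAAT or its reverse complement ATTGG, the letters bound by NF-Y, a factor known to act on HLA promoters.
HLA-C, chr6:31272106-31272342, reverse strand: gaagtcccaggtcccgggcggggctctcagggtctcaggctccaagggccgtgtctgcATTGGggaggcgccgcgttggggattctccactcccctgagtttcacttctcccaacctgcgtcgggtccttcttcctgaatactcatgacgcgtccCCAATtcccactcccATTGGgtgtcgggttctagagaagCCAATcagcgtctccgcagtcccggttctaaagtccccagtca
HLA-DRB1, chr6:32589849-32590098, reverse strand: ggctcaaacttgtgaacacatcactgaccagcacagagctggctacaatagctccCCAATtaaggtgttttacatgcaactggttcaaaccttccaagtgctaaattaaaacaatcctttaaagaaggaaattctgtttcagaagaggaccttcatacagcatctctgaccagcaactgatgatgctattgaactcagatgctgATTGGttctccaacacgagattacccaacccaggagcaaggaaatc
HLA-DQB1, chr6:32666685-32666907, reverse strand: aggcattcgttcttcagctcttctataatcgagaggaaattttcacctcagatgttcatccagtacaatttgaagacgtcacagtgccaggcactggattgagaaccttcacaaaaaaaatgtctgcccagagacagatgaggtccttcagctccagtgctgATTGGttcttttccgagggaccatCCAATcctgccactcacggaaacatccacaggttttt
In the 300 bp promoters, GC content was 59.7% at HLA-F, 62.7% at HLA-C and 62.0% at HLA-B, but 43.3% at HLA-DRB1 and 46.3% at both HLA-DQA1 and HLA-DQB1. The number of CpG was 17, 19 and 22 in these class I promoters and 1, 1 and 7 in the class II promoters. GC and CpG were not counted over all RefSeq promoters, so these values of 6 promoters have no background. CCAAT or ATTGG occurred in all 6, 2 times at HLA-F, 4 at HLA-C, 3 at HLA-B and 2 at each class II gene, and in 34.6% of 35116 RefSeq promoters of the same length. H3K4me3 covered all 300 bp at HLA-C, HLA-B and HLA-DQB1 in CT and in KD. It covered 300 bp in CT and 80 bp in KD at HLA-DRB1, 300 and 237 bp at HLA-DQA1, and 117 and 113 bp at HLA-F. CTCF peaks reached into 1 of the 6, with 40 bp of the HLA-DQB1 promoter under the KD peak shown above. Counted over a 1 kb distance from the start site, this was the 1 member with a CTCF peak in KD, against 11.1% of all genes, and no member had one in CT (7.04%) or OE (9.7%).

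Repressive marks were not called in either class. No H3K9me3, H3K27me3 or input peak was listed in any of the 8 windows or in the span, in CT or in KD. A count of 0 allows up to 3.15 peaks per 100 kb in class I and 3.14 in class II (upper limit of the exact Poisson 95% interval). Of all protein-coding genes, 71.8% had no such peak. H3K9me3 peaks lay in the windows of 22.6% of all genes in CT and 10.4% in KD, and H3K27me3 peaks in 4.43% and 2.95%. The input list had a peak in 1.43%. For HLA-F and HLA-E the nearest peak of each of these lists was at the same place, in the input at chr6:30250633-30250868. Lists of the repressive marks held few peaks, from 4804 to 14546, and the lack of a called peak does not show that a mark was absent.

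The study mapped reads to hg38 with its 16 alternate sequences of chromosome 6, of which 7 are long versions of the HLA region. With default options, Bowtie2 reports a read that matches several places at 1 of them, but the study also describes keeping reads with a unique best match alone. Which rule made these lists is not stated in the sources used here and was not tested. The distal HLA-E locus has identical copies on 5 alternates, and CT and KD listed it on these and on the main sequence. Of the 80-mers of the main sequence, the shortest read length kept, 88.9% between the start of HLA-F and the end of HLA-DQB1 were also present on an alternate, against 4.32% of chromosome 6. The share differed widely between members. It was 83.2% in the HLA-F window, 99.5% for HLA-E, 55.1% for HLA-C, 60.04% for HLA-B and 100% for HLA-DRA. In the polymorphic class II genes it was low, with 6.55% for HLA-DRB1, 21.6% for HLA-DQA1, 30.03% for HLA-DQB1 and 18.7% for the span. How far the sharing of reads among these copies set the peaks on the main sequence was not tested.

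**Figure D4:**
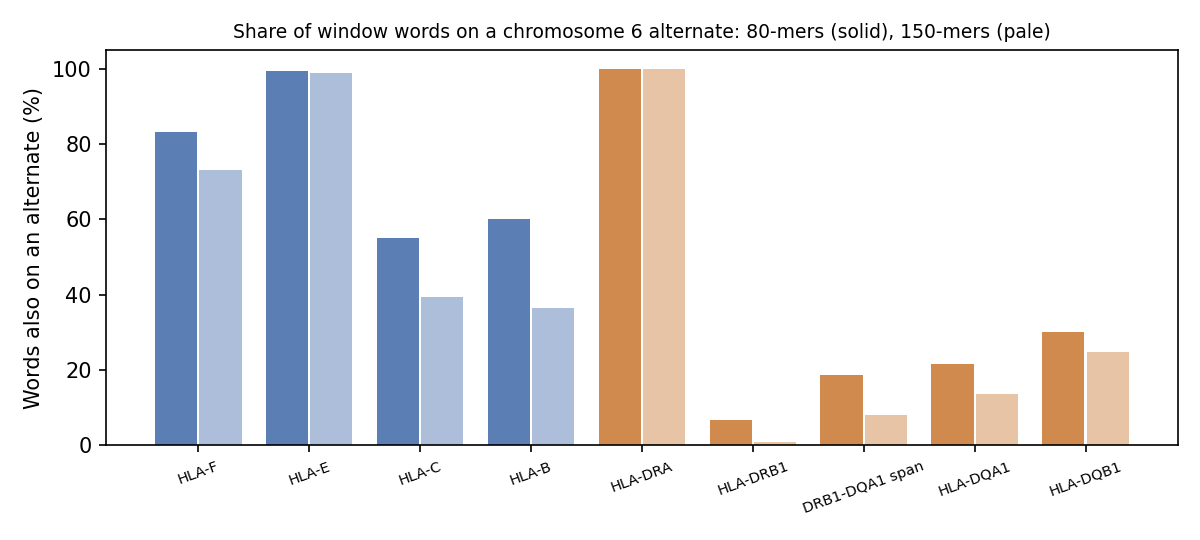
Percent of the 80-mers (solid bars) and 150-mers (pale bars) of each window that also occur on a chromosome 6 alternate, class I in blue and class II with the span in orange. HLA-DRA and HLA-E stand at or near 100%, and HLA-DRB1 is the lowest with 6.55% of its 80-mers.

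Peaks on the alternates were therefore kept apart from those above and placed on the main sequence by their best blastn match, at 90% identity over 80% of the peak. In CT, KD and OE the alternates held 254, 357 and 131 CTCF peaks, of which 12, 16 and 9 fell into member windows. On repeat-masked reads it was 8 of 218, 13 of 273 and 8 of 132. For H3K4me3 it was 27 of 1166 in CT and 31 of 1157 in KD. No peak of a repressive mark or the input fell into a member window. All fell at HLA-F, HLA-E, HLA-C, HLA-B or HLA-DRA, and none at HLA-DRB1, HLA-DQA1, HLA-DQB1 or in the span. The sequence of the intergenic class II locus occurs on 5 alternates at 92.7% to 96.1% identity, and no alternate carried a CTCF peak there in any list.

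HLA-F, with no CTCF peak on the main sequence, had CTCF peaks on alternates in all 6 lists. They matched chr6:29738132-29738824, at the distal end of the gene and over its antisense lncRNA HLA-F-AS1. The intronic part with the strict site is printed from the main sequence, where no list called a peak.
HLA-F distal end, chr6:29738189-29738375: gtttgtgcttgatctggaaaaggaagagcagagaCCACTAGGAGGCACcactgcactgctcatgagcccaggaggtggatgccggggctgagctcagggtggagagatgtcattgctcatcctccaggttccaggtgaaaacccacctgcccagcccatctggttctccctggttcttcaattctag
Unmasked peaks were listed on 3 alternates in CT, 3 in KD and 2 in OE, and repeat-masked peaks on 2, 4 and 3. The site in capitals scored 17.7 and was the best site under 14 of these 17 peaks, and the other 3 peaks, all of CT, held a weaker site with a score of 10.6. The 5 alternates that carry this sequence match the main one at 99.4% to 100% identity.

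At HLA-DRA, the upstream CTCF locus, which on the main sequence was in the repeat-masked KD list only, was found on 3 alternates in KD and on 1 in OE, with and without masking, and on none in CT. All 8 peaks had CCACAAGAGGGAAA, the site of the main sequence, as their best site. H3K4me3 was listed at the HLA-DRA start site on 1 short alternate, KI270758v1, at a place matching chr6:32439887-32440083 in CT and chr6:32439837-32440050 in KD. The sequence of that locus occurs on 7 alternates, 4 of them identical to the main one. HLA-DRA was thus without H3K4me3 on the main sequence and the 7 long alternates but not on all sequences.

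At HLA-E, the distal CTCF locus was listed on 5 alternates in CT, 5 in KD and 4 in OE, so that OE listed this sequence on alternates though not on the main sequence. All 5 alternates that hold this locus carry it without a change. The proximal locus was listed on 4, 5 and 2 alternates unmasked and on none repeat-masked, as on the main sequence. The H3K4me3 peak beside the distal locus, called in KD only on the main sequence, was called in CT on alternates, for example at a place on GL000251v2 that matches chr6:30481870-30482199. The other KD peak without a CT partner on the main sequence also lay under CT peaks on alternates, for example at a place on GL000251v2 that matches chr6:30489084-30490166. At HLA-B, the upstream locus was listed on GL000251v2 in the repeat-masked CT and KD lists. H3K4me3 peaks at or near the start sites were listed on 6 alternates for HLA-F and HLA-E in CT and KD, on 1 in CT and 2 in KD for HLA-C, and on 1 for HLA-B. Those on GL000256v2 for HLA-F, and on GL000252v2 for HLA-C in KD, lay near the start site without covering it.

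**Figure D5:**
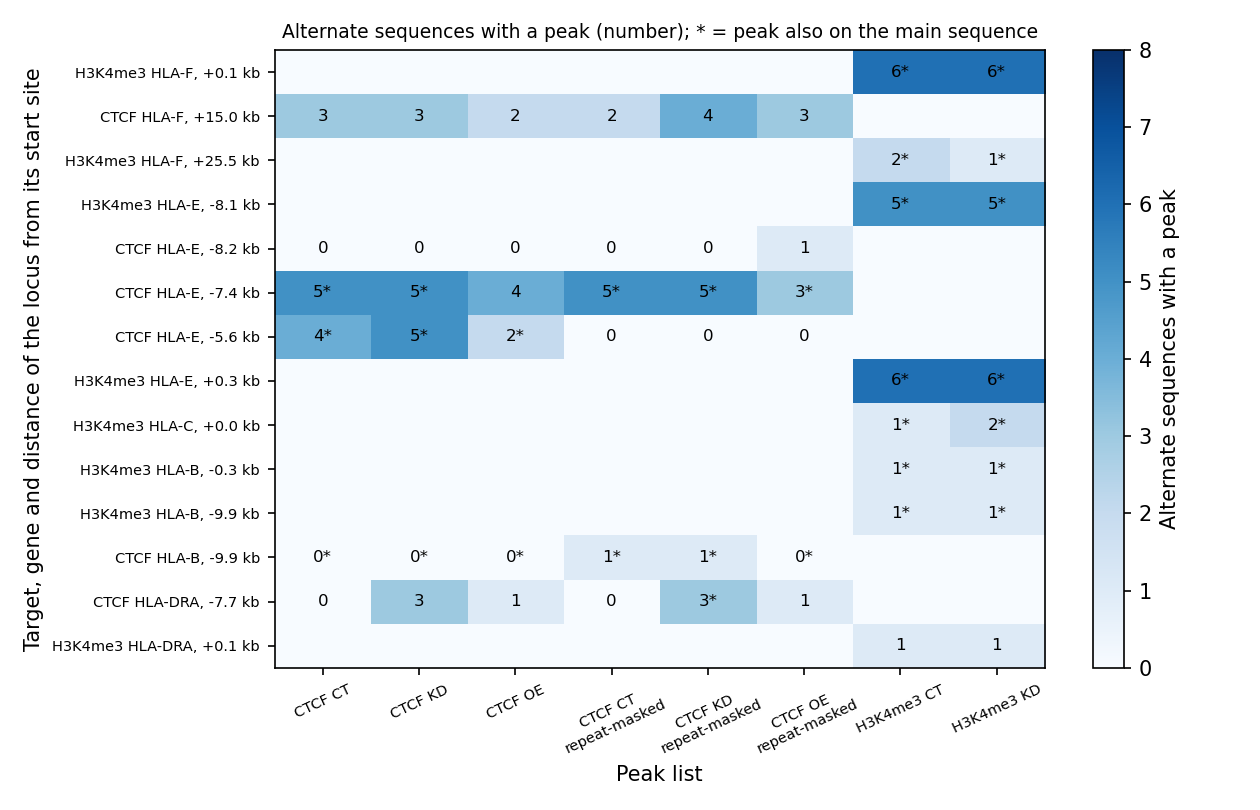
Number of alternate sequences with a peak for each locus placed in a member window (rows, named by target, gene and distance from the start site in kb) and each list (columns), with a star where the main sequence has a peak of the same list. The HLA-F row at the distal end of the gene has numbers from 2 to 4 and no star, and the HLA-DRA row of H3K4me3 has 1 in CT and KD without a star.

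Other genes of antigen presentation were counted by the same rules. Of 33 such genes, 23 had H3K4me3 within 1 kb of the start site in CT and 23 in KD, against 69.8% and 70.4% of all genes. This share lay at that of all genes. The genes with the mark included B2M, the light chain of class I molecules, TAP1, a subunit of the peptide transporter, PSMB9, an immunoproteasome subunit, and NLRC5, an activator of class I genes. RFX5, RFXAP and RFXANK, the subunits of the RFX complex that binds class I and class II promoters, had the mark as well. It was also at the class II genes HLA-DRB5, HLA-DMB and HLA-DOB. The class II genes HLA-DQA2, HLA-DQB2, HLA-DMA, HLA-DOA, HLA-DPA1 and HLA-DPB1 had no such peak in CT or KD. Neither had PSMB8, another immunoproteasome subunit, or the class I gene HLA-G. The genes in these last 3 sentences were named after their values were seen. CIITA, the class II activator, and CD74, the invariant chain of class II molecules, had no H3K4me3 peak within 1 kb of the canonical start site in CT or KD, but their windows held 6 and 7 such peaks at CIITA and 1 and 1 at CD74. A CTCF peak lay in the window of 17 of the 33 genes in CT, 24 in KD and 18 in OE, beside 62.5%, 70.7% and 68.5% of all genes. A peak in KD and none in CT was found for 9 of the 33 genes, against 15.1% of all genes, and the reverse for 2, against 6.8%. On repeat-masked reads these counts were 6 and 2, against 11.1% and 8.83%. Without masking, the 9 genes included TAP1, TAP2 and PSMB8, each on chromosome 6 with 1 KD peak. Whether their windows share that peak was not checked, so the 9 may not be separate cases. B2M was among those with a peak in KD and none in CT with and without masking, whereas TAP1 was among them without masking and had a repeat-masked peak in both. H3K4me3 within 1 kb of the start site was found at 5 of 5 kidney or neural genes of this line (PAX2, LHX1, NEFM, NEFL and EMX2) and at 5 of 5 housekeeping genes in CT and KD. It was found at 0 of 6 genes of antigen-presenting or blood cells (PTPRC, CD79A, MS4A1, CD74, CIITA and CD14), of which CD74 and CIITA are also among the 33, but the windows of 5 of these 6 held an H3K4me3 peak elsewhere in CT and in KD.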

How the data were processed

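The authors sequenced chromatin of HEK293T cells on the Ion Torrent S5, mapped reads of 80 bases or more with Bowtie2 to hg38, masked for repeats or not, and called peaks per library with MACS2. The p for unmasked peaks is 0.005 in the methods, and that for repeat-masked CTCF peaks is 0.001. For unmasked peaks the labels give 0.0025 for the CT and KD lists of CTCF, 0.005 for that of OE and 0.001 for histone marks and the input. The versions of the authors' tools are not given in the sources used here. The 13 deposited lists used give start and end positions in bp and no other value; 6 lists of exclusive peaks, made by the authors with bedtools, were not used. Starts were read as counted from 0 and are printed counted from 1.

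The HLA genes and the gene lists were chosen with earlier results of these data known, and all 8 genes were named. Another marker gene of blood cells is not reported here. Gene bodies and start sites came from GENCODE 44, promoters from RefSeq (GRCh38.p14). Peaks overlapping a window by at least 1 bp were counted, and windows were merged within a class. Intervals are exact Poisson 95% intervals (scipy 1.17.1) for counting error only. The lists give no depth, and the read totals per library in the study's supplement were not used. Alternate peaks were matched with blastn 2.17.0. Counting and motif search were tested on simulated data. With 1 library per condition no test was made. Alternatives changed the flank, the gene model, the overlap rule, the motif threshold, word length and blastn thresholds, and left out peaks on input peaks or kept only the widest 20000 of a list. Adding the span to class II was chosen after seeing the data.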

Additional observations from a re-analysis of the deposited data

How the results depend on the processing

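With 1 library per condition and positions only, these densities rest on 1 to 10 peaks, and their intervals cover counting error alone. Of 107 alternative values, 81 stayed within the limits set (1.5 times for counts and densities) and 26 moved further. The higher CTCF density of class I than of class II turned in OE with a flank of 25 kb. All values kept within these limits when the peak centre had to lie in the window, when sharing needed an overlap of 0.5 or allowed a gap of 500 bp, and with the looser blastn match. Leaving out peaks on input peaks could not change its 16 values, which are among the 81, because no peak of the windows met an input peak. In class I, a flank of 25 kb lowered CTCF to 2.11 peaks per 100 kb in CT and KD and 1.27 in OE, while in class II it raised OE to 1.53. Without a flank, class II held 0 CTCF peaks per 100 kb in CT and OE, and H3K4me3 rose to 13.5 in class I in both conditions and 11.1 in class II in KD. With the canonical transcript body, class II CTCF was 0 in CT and OE and 0.948 in KD. With the widest 20000 peaks of each list, CTCF was 1.71 in CT and 0.855 in KD and OE in class I and 0.852 in KD in class II, and H3K4me3 was 4.27 and 3.42 in class I and 2.56 and 0.852 in class II in CT and KD. Adding the span gave 1.47 for OE in class II. Sites within 1 mismatch of the consensus were in 4 of the 10 loci. With 150-mers, the share found on an alternate was 36.4% for HLA-B, 0.883% for HLA-DRB1, 13.6% for HLA-DQA1 and 7.94% for the span. No paired analysis was possible because each condition has 1 library.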

Other observations

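Between the start of HLA-F and the end of HLA-DQB1, an interval of 2945609 bp on the main sequence, the unmasked CTCF lists of CT, KD and OE held 38, 49 and 18 peaks. This was 1.29 peaks per 100 kb in CT (exact Poisson 95% interval 0.913 to 1.77), 1.66 in KD (1.23 to 2.20) and 0.611 in OE (0.362 to 0.966). Chromosome 6 as a whole held 1.51, 1.53 and 1.64 per 100 kb, so OE was the highest list on the chromosome and the lowest in the HLA region. On the alternates, OE also had the fewest CTCF peaks, 131 against 254 in CT and 357 in KD. On repeat-masked reads the interval held 37, 32 and 22 peaks, or 1.26, 1.09 and 0.747 per 100 kb, and chromosome 6 held 0.991, 0.806 and 0.717, so OE was the lowest list in both. The interval and the alternates share most of their 80-mers, and with 1 library per condition the difference has no replicate check. H3K4me3 peaks in the interval numbered 132 in CT and 142 in KD, or 4.48 and 4.82 per 100 kb, against 2.90 and 3.06 on chromosome 6.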
